A study of Mus musculus with 24 samples.

Results

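Cells that break down glucose release some methylglyoxal, an aldehyde that attacks arginine and lysine side chains, and the glyoxalase system clears it. *Glo1* encodes glyoxalase 1, which converts the adduct of methylglyoxal and glutathione to lactoylglutathione, and *Hagh* encodes glyoxalase 2, which hydrolyses lactoylglutathione to D-lactate and returns the glutathione. *Park7* encodes DJ-1, a redox-sensitive protein that has been described as a glutathione-independent glyoxalase and deglycase, and *Akr1b3* encodes aldose reductase, which reduces methylglyoxal among other aldehydes. *Btbd9* is not a methylglyoxal enzyme. It encodes a BTB domain adaptor of cullin 3 ubiquitin ligases and was grouped with these genes because it lies beside *Glo1*. In the brain, the glyoxalase system is known for its part in neuronal and glial defence against glycation, and *Glo1* for its link to anxiety-like behaviour in mice.

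Of these 5 genes, 4 (*Glo1*, *Hagh*, *Btbd9* and *Park7*) were in the table of 13998 genes measured in the hypothalamus, and *Akr1b3* was not analysed here. The genes were listed with the genotype contrast of the same mice already known. Their differences between genotypes are therefore given as a description, with no test.

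The mice were 24 male F2 animals, 12 *cast/cast* and 12 *b6/b6* across a proximal segment of Chr 17, and *b6/b6* in the rest of the genome. On GRCm38 the 430 genes tested in this segment lie at chr17:3114972-45698495. They descended from a single male of the B6.CAST-17.1 congenic strain, which carries this segment from CAST/EiJ on a C57BL/6J background, mated to C57BL/6J females and followed by an intercross of the F1 mice. The animals were 10 to 16 weeks old when phenotyping began, were offered a carbohydrate/protein (C/P) and a fat/protein diet side by side for 10 d, and were chosen from the 25% tails of C/P intake, the high tail for *cast/cast* and the low tail for *b6/b6*. Chow was then fed, both choice diets were returned about 48 h before dissection, and food was withheld for the last 4 h. Both genotypes were offered both choice diets, but the shortening in the fat/protein diet did not come from a single source, and the labels do not give the source for each mouse. Genotype and selected intake cannot be told apart in this design, because C/P intake was 77.8 to 106.6 kcal in *cast/cast* mice and 27.4 to 41.0 kcal in *b6/b6* mice.

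Expression was measured by SAGE-Seq, which counts a short tag near the 3′ end of each polyadenylated transcript. A transcript gives a single tag whatever its length, so levels can be set side by side between genes. Values are normalized counts, the tag hits of a gene divided by the size factor of the library. In RNA of a whole tissue, fewer cells expressing a gene and less RNA per cell cannot be told apart. The values are hits per gene without tag sequences, and some other annotated transcripts of the members have different tags. Which tags gave the hits was therefore not tested. The expected tags of the members were predicted from transcript sequence. Each is the 27 bases from the 3′-most CATG of the RefSeq transcript in the GENCODE annotation of GRCm38, with this recognition site of the anchoring enzyme NlaIII in capitals.
Glo1: CATGgacgttttccagaaaagccaccc
Hagh: CATGagggccatccgcagggagaagga
Btbd9: CATGacgggctcaccatagaaataaag
Park7: CATGgccaaccaagtgaaggcaccgct

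The *Glo1* tag lay in coding sequence on the minus strand at chr17:30600052-30600078, 492 bases from the transcript end. Its 27 bases also occur in the processed pseudogene *Gm13443*, so tags of the pair could not be separated by sequence. The *Hagh* tag lay in coding sequence on the plus strand at chr17:24864241-24864267. The *Btbd9* tag lay in the 3′ UTR on the minus strand at chr17:30215538-30215564, 14 bases from the transcript end, and the *Park7* tag in coding sequence on the minus strand at chr4:150897327-150897353. None of these 3 tags occurred in another gene whose transcripts were searched. The annotated transcript variants of *Glo1*, *Hagh* and *Btbd9* in RefSeq share these tags and have the same values in the table, so variants were not separated.

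*Glo1* (chr17:30592862-30612659) and *Btbd9* (chr17:30215524-30576287) are neighbours, 16.6 kb apart, in the fine-mapped interval of the segment, whose 234 tested genes lie at chr17:26081211-45119294. *Hagh* (chr17:24850490-24864450) lies in the CAST segment proximal to that interval. *Park7* (chr4:150897133-150909921) lies where both genotypes carry the same alleles.

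Between 7754202 and 13082873 tag hits fell on genes in each mouse, and the members were covered by 83 to 3044 hits. The labels name no sequencing batch. The labels give each mouse a study number without saying what it follows. Its median was 120.5 for *cast/cast* mice against 269.5 for *b6/b6* mice, and the numbers overlapped from 27 to 270, where 11 *cast/cast* and 6 *b6/b6* mice lay. A total of 3 libraries stood apart, with a median correlation with the other mice under 0.9 over all genes. They were *cast/cast* mouse 6 and *b6/b6* mice 6 and 12, numbered in the order of deposit. The genotype differences of the members, their spread and their correlations are given with and without these libraries where they move them. Hypothalamic neuropeptide and transcription factor genes were present in 11 of 12 cases, *Sst* being the one missing from the table, and their summed level was 10818 to 28205 in *b6/b6* mice and 6027 to 30933 in *cast/cast* mice. Of the marker lists, 6 of 6 genes were in the table for neurons, astrocytes, oligodendrocytes, microglia, endothelial cells and choroid plexus or ependyma, and 3 of 6 for pituitary and red blood cells. Of these 53 genes, limma called 0 between genotypes (4 at an unadjusted *P* under 0.05), edgeR 3 (2.79% of all genes tested) and DESeq2 3 (2.82%). At an unadjusted *P* under 0.05 limma passed 8.13% of all genes. The median summed level of choroid plexus and ependyma markers was 579 in *b6/b6* mice and 814 in *cast/cast* mice, that of red blood cell markers 527 and 255, and that of pituitary markers 80.3 and 43.0. The red blood cell sum reached 4999 in *b6/b6* mice and 782 in *cast/cast* mice, and 1044 and 597 without the 3 libraries. The part of these markers in the levels of the members was not tested.

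*Glo1* transcripts were about 2 times as abundant in *cast/cast* as in *b6/b6* hypothalamus. The normalized count was 1012 at the lowest, 1183 at the median and 1693 at the highest in *b6/b6* mice. In *cast/cast* mice it was 1832, 2570 and 3276. Every *cast/cast* mouse was above every *b6/b6* mouse, and the 3 libraries that stood apart lay inside the range of the others of their genotype. The means were 1232 ± 183 in *b6/b6* mice and 2575 ± 396 in *cast/cast* mice (SD, n = 12 each), a ratio of 2.09. On the log2 scale the difference was 1.06 ± 0.11 (SE), where log2 values here and below are of the normalized count plus 1, and *cast/cast* minus *b6/b6*. Without the 3 libraries the log2 difference was 1.03, and among mice in the shared range of study numbers 1.17. Genotypes did not overlap for 0.336% of all genes tested and for 10.2% of the 430 genes in the CAST segment. Since *Glo1* was listed with this contrast known, nothing is read from its place among them.

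*Btbd9* also had a higher mean in *cast/cast* mice, with a smaller difference and with overlap. Its normalized count was 676, 940.0 and 1438 (lowest, median, highest) in *b6/b6* mice. In *cast/cast* mice it was 978, 1359 and 1797. A total of 5 *cast/cast* mice were above all *b6/b6* mice, 6 *b6/b6* mice were below all *cast/cast* mice, and the remaining 13 shared a range. The means were 1020.0 ± 258 and 1414 ± 269.5, a ratio of 1.39 and a log2 difference of 0.49 ± 0.14. The 2 lowest values were those of *b6/b6* mice 12 and 6. Without the 3 libraries the ratio was 1.27, and in the shared range of study numbers it was 1.66.

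*Hagh*, the enzyme that follows *Glo1* in the pathway, had a lower mean in *cast/cast* mice, and the difference was near 0 without the 3 libraries that stood apart. The normalized count was 309.9, 552 and 2385 in *b6/b6* mice. It was 98.5, 523 and 822 in *cast/cast* mice. The medians were close and the ranges overlapped, but 5 *cast/cast* mice were below all *b6/b6* mice and 2 *b6/b6* mice were above all *cast/cast* mice. Those 2 were *b6/b6* mice 6 and 12, both among the 3 that stood apart, with 1942 and 2385. The 5 included *cast/cast* mouse 6, which had the lowest value of all mice. Without the 3 libraries the lowest value was 169 in *cast/cast* mice and 309.9 in *b6/b6* mice. The means were 756 ± 676 and 465 ± 254, a ratio of 0.61 and a log2 difference of -0.61 ± 0.37. Without the 3 libraries the means were 475 ± 139 (n = 10) and 498 ± 237 (n = 11), the ratio was 1.05 and the log2 difference -0.06 ± 0.27. In the shared range of study numbers, which holds both of those *b6/b6* mice, the ratio was 0.44.

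*Park7*, on Chr 4, had nearly the same level in both genotypes. The normalized count was 188, 377 and 536 in *b6/b6* mice. It was 198, 414 and 509.8 in *cast/cast* mice, so that the ranges almost coincided. The means were 363 ± 103 and 381 ± 109.7, with a log2 difference of 0.06 ± 0.19. The sign of this difference changed when the 3 libraries were left out (-0.06) and when libraries were rescaled to the same total (-0.03).

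**Figure D1:**
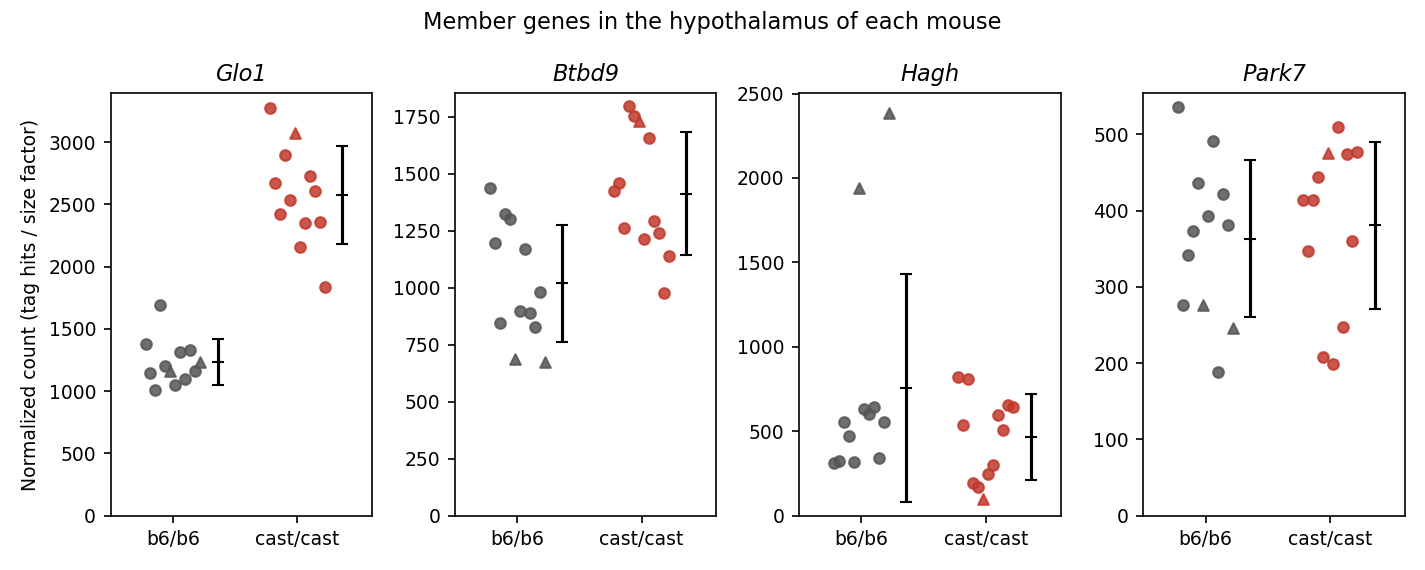
Normalized counts (tag hits divided by the size factor, linear axes from 0) of the 4 members in each of the 24 mice, b6/b6 in grey and cast/cast in red, with mean ± SD beside each group; triangles mark the 3 libraries that stood apart. For Glo1 all cast/cast mice (1832 to 3276) sit above all b6/b6 mice (1012 to 1693), and for Hagh 2 triangles (1942 and 2385) sit far above the other b6/b6 mice.

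The order of the levels was *Glo1*, *Btbd9*, *Hagh* and *Park7* in both genotypes. *Glo1* ranked 1067th of all genes by mean normalized count and *Park7* 4433rd. Neighbours in this order were not always distinct. *Glo1* was above *Btbd9* in 9 of 12 *b6/b6* mice and in 12 of 12 *cast/cast* mice, and *Hagh* was above *Park7* in 9 of 12 and 8 of 12 mice. *Btbd9* was above *Hagh* in 10 of 12 *b6/b6* mice, the exceptions being mice 6 and 12, and in 12 of 12 *cast/cast* mice. Within a library, where scaling cancels, there were 1.19 *Glo1* tags per *Btbd9* tag at the median of *b6/b6* mice (0.92 to 1.82) and 1.80 at the median of *cast/cast* mice (1.41 to 2.41), with overlap between the genotypes. Per *Hagh* tag there were 2.15 *Glo1* tags at the median of *b6/b6* mice (0.52 to 4.45) and 5.05 at that of *cast/cast* mice (2.84 to 31.2), also with overlap. The medians were 2.85 (1.65 to 4.45) and 4.98 (2.84 to 15.0) without the 3 libraries.

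The members differed in how much they varied between mice of a genotype. *Glo1* was the steadiest, with a coefficient of variation of 14.9% in *b6/b6* mice and 15.4% in *cast/cast* mice. *Btbd9* had 25.3% and 19.1%, *Park7* 28.3% and 28.8%, and *Hagh* 89.4% and 54.7%. Without the 3 libraries the coefficient of variation of *Hagh* was 29.3% in *b6/b6* mice, close to the 26.2% of *Park7*, and 47.7% in *cast/cast* mice, where *Park7* had 29.7%. That of *Glo1* was then 16.2% and 15.1%, still the lowest of the members in both genotypes, and that of *Btbd9* 20.7% and 18.9%. The SD of log2 values was 0.20 and 0.23 for *Glo1* in the 2 genotypes and 0.96 for *Hagh* in *b6/b6* mice, beside a median of 0.47 and 0.46 in these genotypes over the 8207 genes whose mean count reached 100. The SD of *Hagh* in *b6/b6* mice was 0.44 without the 3 libraries.

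The levels of the members varied with a difference between libraries that was present in both genotypes. It is summarized by the first principal component of 13330 genes outside the segment, members excluded, which held 33.9% of their variance. Scores fell into separate groups of mice, so no correlation is given. *Hagh* was 552 to 2385 in the 6 *b6/b6* mice with a score below 0 and 309.9 to 601 in the 6 with a score above 0. In *cast/cast* mice it was 245 to 807 in the 7 with a score below 0 and 98.5 to 822 in the 5 above 0, where 1 mouse with a score of 0.914 gave the highest value and the other 4 were at or under 297. *Btbd9* went the other way. It was 676 to 984 below 0 and 827 to 1438 above 0 in *b6/b6* mice, and 978 to 1459 below 0 and 1424 to 1797 above 0 in *cast/cast* mice. *Glo1* and *Park7* moved in the same sense as *Btbd9*, with overlapping ranges. The median of *Glo1* went from 1132 below 0 to 1324 above 0 in *b6/b6* mice and from 2418 to 2894 in *cast/cast* mice. That of *Park7* went from 308 to 429 and from 360 to 444. The summed level of the 6 microglia markers moved with the score as well, from 1574 to 2514 below 0 and 2184 to 3817 above 0 in *b6/b6* mice, and from 1953 to 2902 and 2333 to 5215 in *cast/cast* mice. The oligodendrocyte sum went down, with medians of 26605 below 0 and 18836 above 0 in *b6/b6* mice and 28990 and 14917 in *cast/cast* mice. So did the median sum of the hypothalamic genes, from 15093 to 12617 in *b6/b6* mice and from 17641 to 8584 in *cast/cast* mice, and that of the astrocyte markers, from 24948 to 18761 and from 25201 to 21105. The median red blood cell sum went up, from 196 to 615 in *b6/b6* mice and from 199 to 349 in *cast/cast* mice. Its ranges overlapped, and the highest sum, 4999, was that of a *b6/b6* mouse with a score below 0. The median sum of choroid plexus and ependyma went down, from 641 to 543 and from 1325 to 685. Its ranges nearly coincided, at 367 to 1246 below 0 and 260 to 1284 above 0 in *b6/b6* mice. In *cast/cast* mice they were 460 to 1660 and 382 to 1656. The remaining lists did not move alike in both genotypes. Medians went from 36304 to 29281 and from 36627 to 36833 for neurons, and from 1225 to 1036 and from 1118 to 1133 for endothelial cells. For pituitary they went from 47.2 to 125 and from 45.4 to 41.0. The part of these gene groups in the levels of the members was not tested. With the first and second components as covariates the log2 difference between genotypes was 1.07 ± 0.09 for *Glo1*, 0.37 ± 0.09 for *Btbd9* and -0.27 ± 0.21 for *Hagh*.

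**Figure D2:**
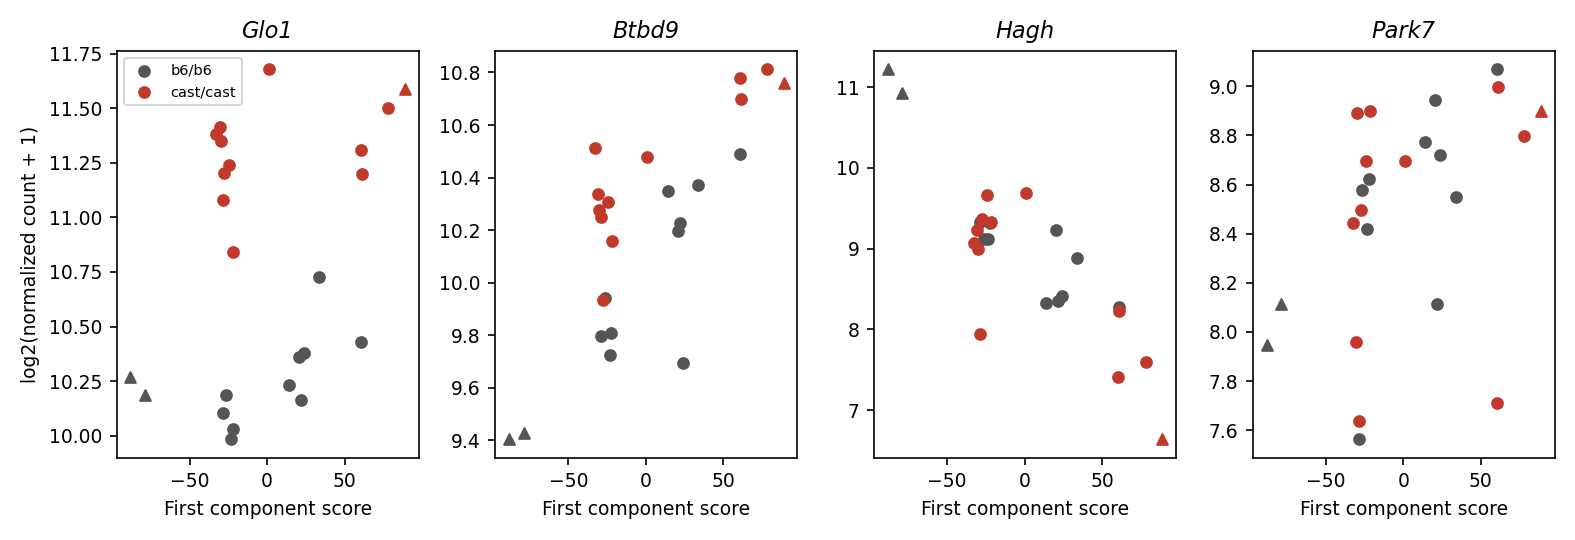
log2(normalized count + 1) of each member against the score of the mouse on the first principal component of the genes outside the CAST segment, b6/b6 in grey and cast/cast in red, triangles marking the 3 libraries that stood apart. Glo1 separates the genotypes at every score, whereas Hagh is highest in the b6/b6 mice with the lowest scores (1942 and 2385 normalized counts).

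Other steps of methylglyoxal handling, and genes related to *Btbd9* and *Park7*, were listed to see whether they differed with the segment. Of 59 listed genes, 51 could be tested with limma over all 13998 genes. The 51 include 4 genes of the cullin 3 ligase and 4 familial Parkinson disease genes, which are not steps of methylglyoxal handling. None was called by the thresholds of the study, an unadjusted *P* of at most 0.01 with a ratio of means of at least 1.5. Among all genes 0.471% were called higher and 1.01% lower, and outside the segment, where 49 of the 51 lie, 0.255% and 0.458%, so that a count of 0 is near the background. At an unadjusted *P* under 0.05 there were 4 genes (8.13% of all genes passed), and 0 at an adjusted *P* of at most 0.05 (0.572% of all genes). Of these 4, 2 were reductases or dehydrogenases, 1 was of the cullin 3 ligase list and 1 of the Parkinson disease list. On the tag hits, edgeR called 2 of the 51 genes lower, where it called 2.36% of all genes lower. DESeq2 called 1 lower and 1 higher, where it called 2.24% and 0.586% of all genes. The median log2 difference over the 51 genes was 0.01, beside -0.02 over all genes.

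Among glyoxalase-fold and related hydrolase genes and those of lactate use, 0 of 8 passed, with a median log2 difference of -0.09. *Ldha* and *Ldhb*, the subunits of lactate dehydrogenase, were the most abundant. *Ldha* had 14992 ± 6126 in *b6/b6* mice and 14378 ± 8638 in *cast/cast* mice, and *Ldhb* 2956 ± 908 and 2533 ± 804. *Ldhd*, the D-lactate dehydrogenase, had 52.9 ± 15.7 and 47.9 ± 16.9. *Haghl*, a paralog of *Hagh* in the same segment at chr17:25779843-25785586, had 1267 ± 526 and 1664 ± 826 (log2 difference 0.35 ± 0.25, limma *P* = 0.186). It varied with the first component in the opposite sense to *Hagh*, from 699 to 1118 below 0 and 1360 to 2300 above 0 in *b6/b6* mice. *Haghl* was named after its values were seen, as was the comparison with the score.

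Among aldo-keto reductases and aldehyde dehydrogenases, which reduce or oxidise methylglyoxal and like aldehydes, 0 of 12 passed, with a median log2 difference of -0.13. *Akr1a1*, aldehyde reductase, was by far the most abundant at 18634 ± 6191 in *b6/b6* mice and 19816 ± 3208 in *cast/cast* mice, and its lowest values, 6287 and 7666, were those of *b6/b6* mice 12 and 6. *Akr1e1* had 449 ± 83.7 and 573 ± 161 (log2 difference 0.32 ± 0.15, limma *P* = 0.0485, adjusted *P* = 0.61). *Aldh2*, the mitochondrial aldehyde dehydrogenase, had 159.9 ± 99.2 and 94.0 ± 32.0 (log2 difference -0.60 ± 0.28, limma *P* = 0.0425, adjusted *P* = 0.607), and *b6/b6* mouse 12 gave its highest value, 405. *Aldh2* had 127 ± 57.1 (n = 10) and 93.0 ± 33.4 (n = 11) without the 3 libraries. *Aldh2* and *Park2* (below) were named after their values were seen.

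Glutathione supply and redox genes gave 0 of 12 calls and a median log2 difference of -0.03. *Gpx4*, the lipid hydroperoxide-reducing glutathione peroxidase, had 2335 ± 2230 in *b6/b6* mice and 1285 ± 309 in *cast/cast* mice, and *b6/b6* mice 6 and 12 had 6159 and 7765. It had 1410 ± 472 (n = 10) and 1280.3 ± 324 (n = 11) without the 3 libraries. *Glrx*, glutaredoxin, had 1539 ± 482 and 1633 ± 515. Genes of the triose phosphate steps, from which methylglyoxal forms, gave 0 of 7 calls and a median of 0.09. *Tpi1*, triosephosphate isomerase, had 21216 ± 7466 and 26432 ± 12896, and *Aldoc*, the brain aldolase, 8714 ± 2694 and 9389 ± 3089. Genes of deglycation and of glycation end product binding gave 0 of 4 calls and a median of 0.05, with *Ddost* at 1282 ± 581 and 1297 ± 305 and *Fn3k*, the fructosamine 3-kinase, at 631 ± 215 and 854 ± 327.

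The core of the cullin 3 ligase that *Btbd9* joins gave 0 of 4 calls and a median of 0.12. *Rbx1*, its RING subunit, had 7129 ± 989 and 8858 ± 1832 (log2 difference 0.30 ± 0.12, limma *P* = 0.0187, adjusted *P* = 0.55), and *Nedd8*, the modifier that activates cullins, 6358 ± 1509 and 7679 ± 2026. Familial Parkinson disease genes listed beside *Park7* gave 0 of 4 calls and a median of 0.10, with *Pink1* at 722 ± 545 and 607 ± 244. *Park2* (parkin), which lies in the CAST segment, had 96.2 ± 17.5 and 145 ± 77.6 (log2 difference 0.45 ± 0.21, limma *P* = 0.0398, adjusted *P* = 0.607).

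**Figure D3:**
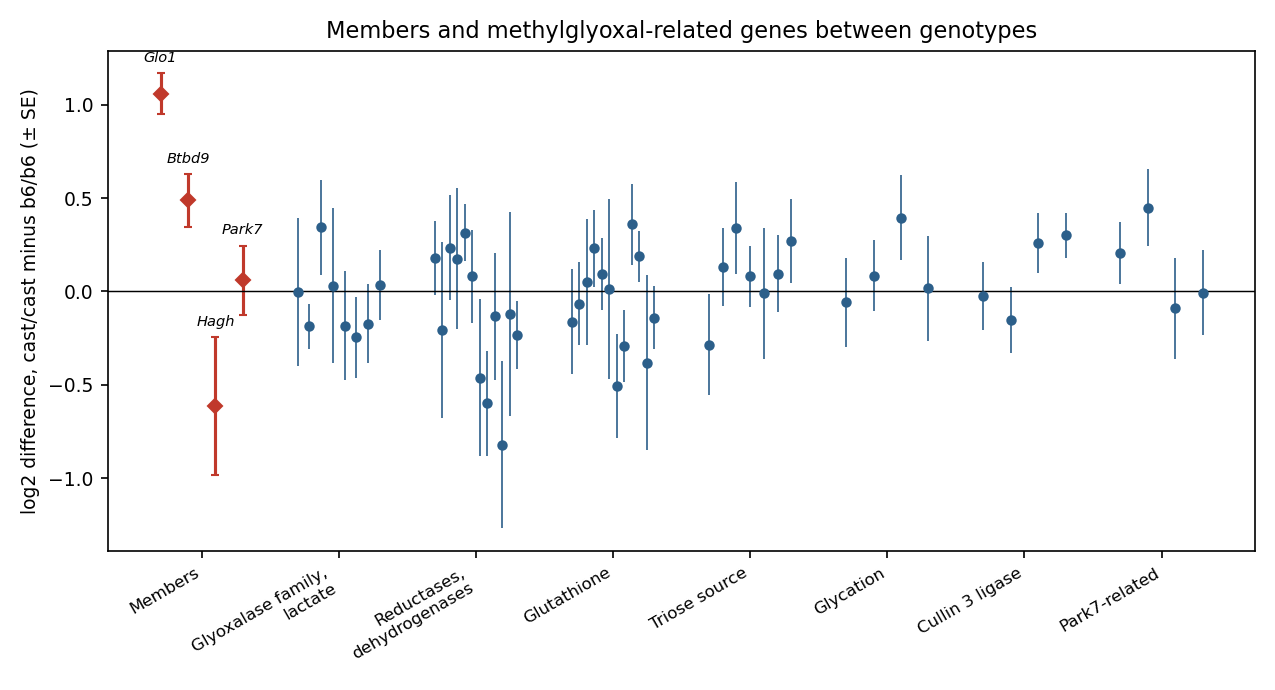
log2 difference in normalized count + 1, cast/cast minus b6/b6, with its SE, for the 4 members (red diamonds) and for each tested gene of the 7 lists (blue circles). Glo1 stands at 1.06 and Btbd9 at 0.49, and the 51 listed genes lie between -0.82 and 0.45.

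The genes around *Glo1* were read to see how far its difference extended along the chromosome. Within 500 kb of *Glo1*, 5 genes other than *Btbd9* were tested, of which 1 was called higher and 1 lower with limma, where 24.4% of all genes in the CAST segment were called (5.81% higher, 18.6% lower). *Gm6402* (chr17:30394825-30396180), a transcribed pseudogene that lies inside *Btbd9* without overlapping its annotated exons, had 13.2 ± 11.7 in *b6/b6* mice and 68.7 ± 38.6 in *cast/cast* mice (log2 difference 2.71 ± 0.49, limma adjusted *P* = 0.00153), with overlapping ranges of 0.817 to 36.9 and 18.1 to 133. *Umodl1*, a uromodulin-like gene, had 14.7 ± 9.36 and 1.12 ± 1.75 (log2 difference -2.94 ± 0.42, limma adjusted *P* = 4.79e-05), and no *cast/cast* mouse had more than 5 hits. The nearest gene on the distal side, the axonemal dynein gene *Dnahc8* at 14.3 kb, had 27.6 ± 13.5 and 21.1 ± 8.47 (limma *P* = 0.109). *Zfand3* had 1796 ± 327 and 1931 ± 451, and *Abcg1*, a sterol transporter, 379 ± 69.4 and 396 ± 105. Of the abundant genes in this window, *Zfand3* and *Abcg1* had log2 differences of 0.09 ± 0.15 and 0.03 ± 0.16.

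Around *Hagh*, 45 genes were tested within 500 kb, of which 3 were called higher and 8 lower with limma (24.4%), the same share as in the whole segment. The genes called higher were *Rab26*, a small GTPase of vesicle traffic (105 to 166 in the means of *b6/b6* and *cast/cast* mice), *Noxo1*, an NADPH oxidase organizer (54.1 to 131), and the pentraxin gene *Ptx4* (15.8 to 55.8). Among those called lower, *Caskin1*, a synaptic scaffold gene, went from 2310.4 to 631 and *Mapk8ip3*, a JNK scaffold gene, from 3376 to 76.4. *Zfp598*, a ubiquitin ligase of ribosome quality control, went from 442 to 2.66, *Nthl1*, a DNA glycosylase, from 69.3 to 1.53, and *Eme2*, an endonuclease subunit, from 252 to 12.8. No *cast/cast* mouse had more than 9 hits for *Zfp598* or more than 3 for *Nthl1*. *Tbl3*, *Ndufb10* and *Spsb3* were the others called lower, with log2 differences of -2.59 ± 0.39, -0.77 ± 0.27 and -1.13 ± 0.31. After adjustment over all genes, 8 of the 11 had an adjusted *P* of at most 0.05 in limma (8 of 45, beside 16.7% of the genes of the segment), and *Rab26* (0.0504), *Spsb3* (0.15) and *Ndufb10* (0.472) did not. The nearest genes were not called. *Fahd1*, 0.188 kb proximal, had 102 ± 41.0 and 80.0 ± 28.8, and *Nubp2*, 18.2 kb distal, 586 ± 154 and 724 ± 449. Tags of all mice were aligned to the C57BL/6J reference, and for a gene in the segment fewer transcripts and fewer aligned CAST tags cannot be told apart.

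**Figure D4:**
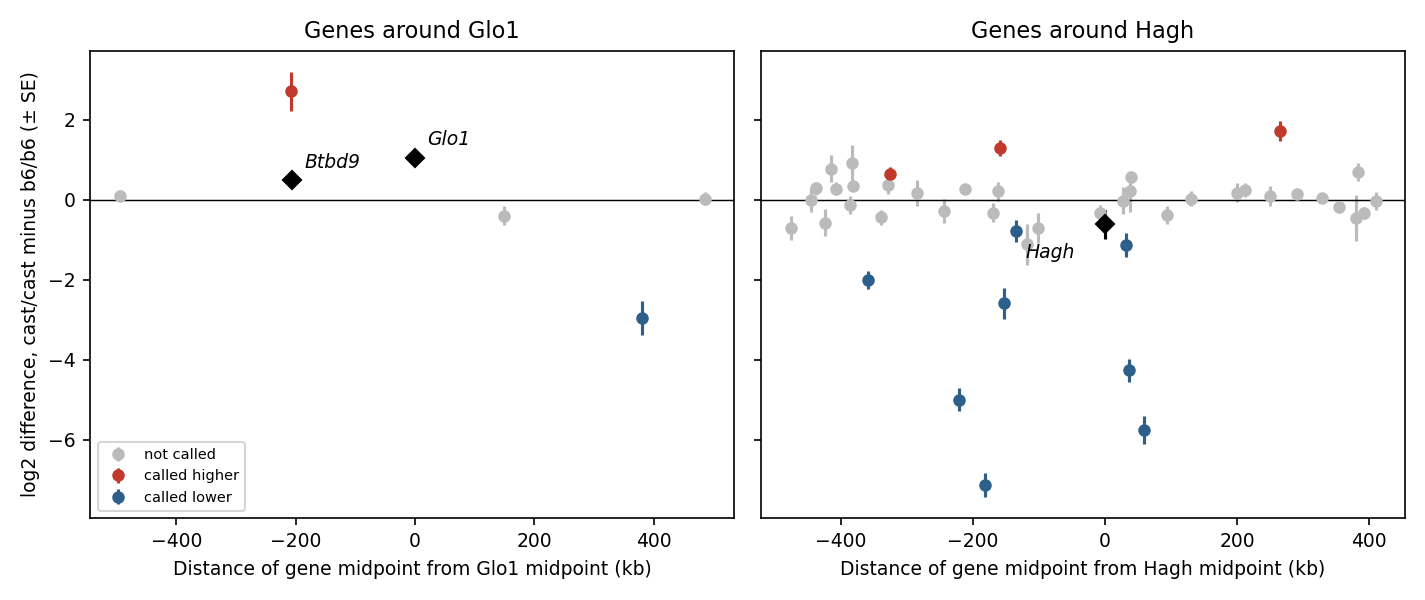
log2 difference in normalized count + 1, cast/cast minus b6/b6, with its SE, against the distance of each gene's midpoint from that of Glo1 (left) or Hagh (right) in kb, members as black diamonds, genes called higher in red, lower in blue and the rest in grey. Around Glo1 2 of 5 genes are called, and around Hagh 3 are called higher and 8 lower among 45.

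Relations of the members with intake were tested within each genotype, because the genotypes form separate groups of intake by selection. There were 16 relations, for 4 members, 2 genotypes and 2 measures, and none had an adjusted *P* of at most 0.05 (100000-resample permutation tests, two-sided, Benjamini-Hochberg). *Glo1* had *r* = -0.38 with C/P kcal in *b6/b6* mice (permutation *P* = 0.227, rho = -0.48, *P* = 0.116) and 0.18 in *cast/cast* mice (*P* = 0.574, rho = 0.45, *P* = 0.141). Without the 2 mice farthest from the median intake *r* was -0.56 and 0.54. In *b6/b6* mice it was -0.57 without mice 6 and 12 (permutation *P* = 0.0789, adjusted 0.421) and -0.63 with libraries rescaled to the same total. With total kcal *Glo1* had 0.05 in both genotypes (permutation *P* = 0.874 and 0.875). At 12 mice a genotype, weak relations were not detectable.

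The lowest *P* was that of *Hagh* with total kcal in *cast/cast* mice, with *r* = 0.67 (permutation *P* = 0.0167, adjusted 0.209) and rho = 0.68 (*P* = 0.0193). The correlation was 0.53 without the 2 mice farthest from the median intake, and 0.82 without *cast/cast* mouse 6 (permutation *P* = 0.00228, adjusted 0.0365 over the same 16 relations without the 3 libraries). By rank, rho was then 0.72 (permutation *P* = 0.016, adjusted 0.256), and *r* was 0.58 when the 2 farthest mice were left out as well. This exclusion was added after the data were seen. In *b6/b6* mice the same relation had *r* = -0.46 (permutation *P* = 0.141), and the difference between genotypes was not tested. *Hagh* also had *r* = -0.64 with C/P kcal in *b6/b6* mice (permutation *P* = 0.0261, adjusted 0.209), which was -0.22 without the 2 mice farthest from the median and so rested on those mice. *Park7* had *r* = -0.57 with C/P kcal in *cast/cast* mice (permutation *P* = 0.0441, adjusted 0.235), and -0.43 without the 2 farthest mice. *Btbd9* lay between -0.36 and 0.38 in its 4 relations.

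**Figure D5:**
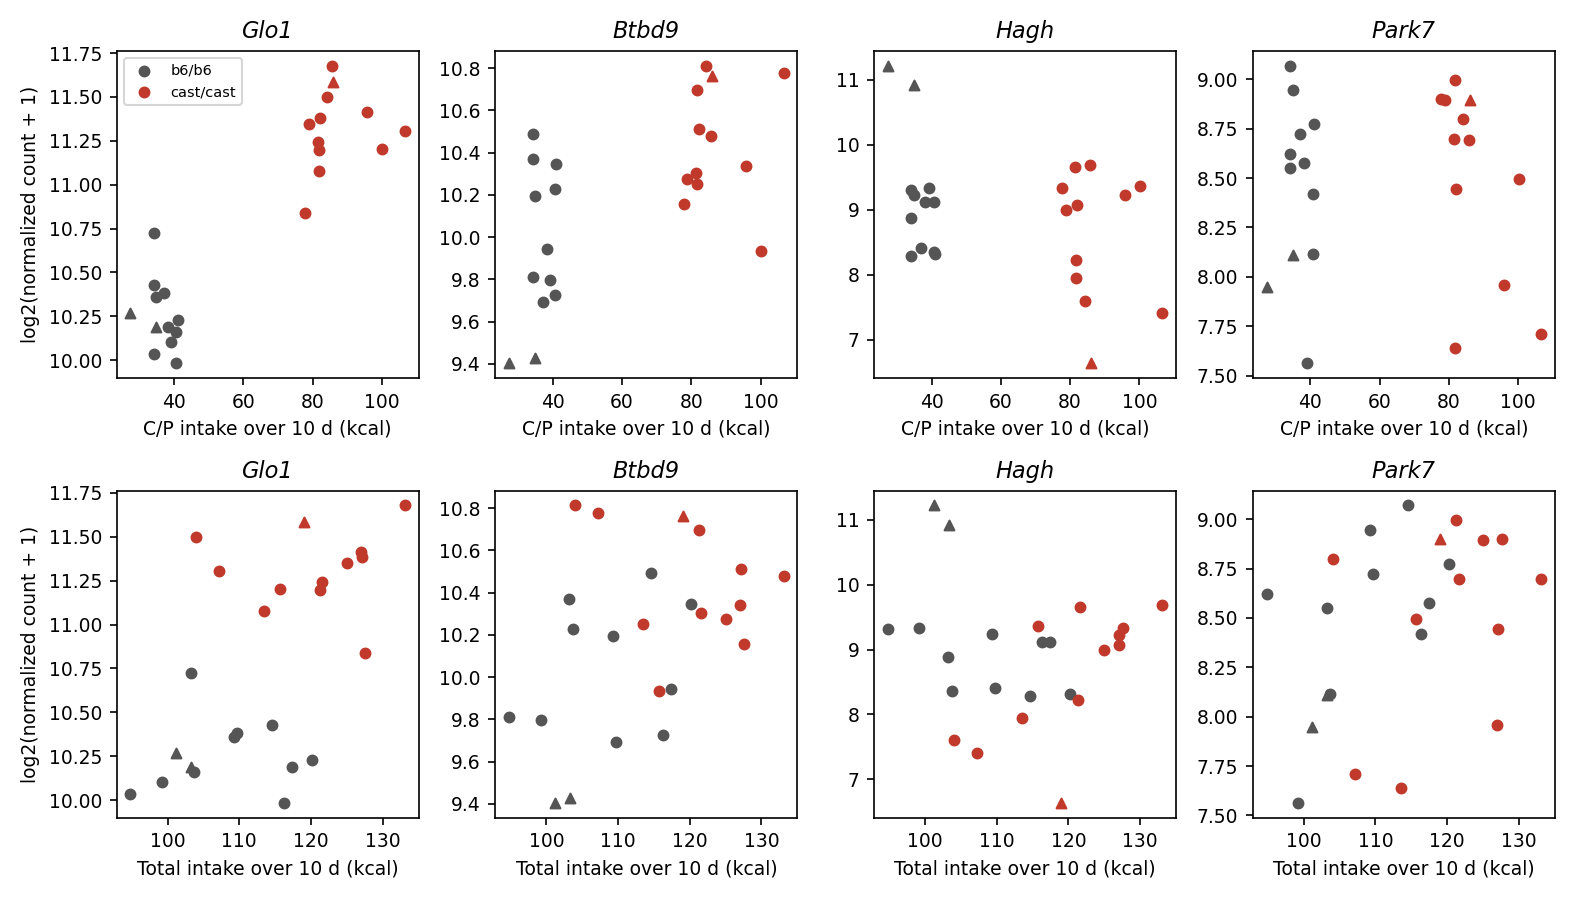
log2(normalized count + 1) of each member against C/P kcal (top row) and total kcal (bottom row) over the 10 d choice test, b6/b6 in grey, cast/cast in red, triangles marking the 3 libraries that stood apart. Genotypes are apart on the C/P axis by selection; within genotype, Hagh against total kcal in cast/cast mice has the lowest P (r = 0.67, adjusted P = 0.209).

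Of the 12 relations between pairs of members within a genotype, 1 had an adjusted *P* of at most 0.05. *Hagh* and *Btbd9* went in opposite directions in *b6/b6* mice (*r* = -0.78, permutation *P* = 0.0014, adjusted 0.0168, rho = -0.74, *P* = 0.00767). The correlation was -0.52 without *b6/b6* mice 6 and 12 (n = 10, permutation *P* = 0.118, adjusted 0.419, rho = -0.55, *P* = 0.104). These are also the 2 mice farthest from the median of *Hagh*. Without them the correlation was weaker and kept its sign, and its adjusted *P* was no longer at most 0.05. In *cast/cast* mice the pair had *r* = -0.71 (permutation *P* = 0.0113, adjusted 0.0677) and -0.55 without the 2 farthest mice. *Glo1* and its neighbour *Btbd9* had *r* = 0.48 in *b6/b6* mice (permutation *P* = 0.109, adjusted 0.219) and 0.53 in *cast/cast* mice (*P* = 0.074, adjusted 0.178). *Glo1* and *Hagh*, successive enzymes of the pathway, had -0.19 and -0.21 (permutation *P* = 0.538 and 0.514). Both genes of a pair come from the same library and share its depth, scaling and dissection.

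The genes most like *Glo1* over all 24 mice, by Pearson's *r* of log2 values, followed the genotype. They were *LOC641240* (*r* = 0.93), *Wfikkn1* (0.87), *LOC101055787* (0.86), *Rsph1* (0.85) and *A930015D03Rik* (0.84). Means in *b6/b6* and *cast/cast* mice were 0.0 and 42.5 for *LOC641240*, 4.45 and 41.7 for *Wfikkn1*, and 1.73 and 11.9 for *LOC101055787*. These genes were thus absent or near absent in *b6/b6* mice, and their *r* mainly gives the difference between genotypes. Means were 42.1 and 248 for *Rsph1* and 13.0 and 63.5 for *A930015D03Rik*. *Wfikkn1*, *Rsph1* and *A930015D03Rik* lie in the CAST segment at chr17:25877628-25880858, chr17:31255020-31277356 and chr17:35994504-36038174, and the gene models were not placed here. With each genotype's mean removed, the genes most like *Glo1* were *Eri2* (0.82) and *Emc10* (0.78) on Chr 7. For *Btbd9* they were *Rnf41* (0.91) and *Exoc3* (0.91) and for *Hagh* *C1qc* (0.95) and *Ssr4* (0.94). *C1qc*, a complement gene expressed by microglia, was 123 to 327 in *b6/b6* mice with a score below 0 and 66.7 to 121 in those above, while the microglia marker sum was higher above 0. These correlations were the highest among all genes and describe likeness only.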

How the data were processed

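SAGE-Seq libraries of 24 hypothalami, 1 per mouse, were analysed. The signal values were deposited by the authors as tag hits per gene, after alignment to the RefSeq transcriptome and GRCm38 in an adapted SOLiD SAGE software, with each library divided by its size factor from DESeq. All values (100%, within 0.01) were whole multiples of a step per library, which gave the tag hits, 7754202 to 13082873 per mouse. The table's columns of the authors' own comparison, with means, fold changes and *P* values from DESeq, were not used. Its 19529 rows hold 13998 genes, and repeated rows had equal values. The lowest mean was 6.03, so rarer genes were not analysed here. No pair of 276 library pairs agreed within sampling noise (lowest chi-square per degree of freedom 14.7). Positions came from the table for 13277 genes and otherwise from RefSeq, and 237 genes had no region.

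Genotypes were compared with limma 3.58.1 (lmFit, eBayes with trend) on log2(normalized count + 1) over all genes with a mean of at least 5. Alternatives were a pseudocount of 0.5 or 5, a mean of at least 20, rescaling to equal totals, edgeR 4.0.16 (quasi-likelihood, TMM) and DESeq2 1.42.0 on tag hits, study number as a covariate, and mice of the shared study numbers. Leaving out 3 libraries and 2 principal components as covariates were added after the data were seen. The fits were tested on simulated data. Correlations used 100000 permutations in Python 3.11.15 with scipy 1.17.1. They were planned for 5 members, and 4 were in the table.

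The members and lists were chosen with earlier results of these data known. Genes were named by rule: all members; per list every called gene and the 2 of highest mean; of the neighbours every called gene and the nearest on each side; the 5 genes most like *Glo1* over all mice; and the 2 most like each member within genotype. Exceptions are stated where they occur. Some genes that the rule names, and the genes most like *Park7*, are not reported here. *Zfand3* and *Abcg1* were added to complete the *Glo1* window, and *Ldhd* to give the D-lactate step.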

Additional observations from a re-analysis of the deposited data

How the results depend on the processing

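The log2 differences of *Glo1*, *Btbd9*, *Hagh* and *Park7* moved by less than 1 SD of the mice of a genotype under all 10 alternatives, although *Park7* changed sign under 3 and *Hagh* went from -0.61 to between -1.15 and -0.06. This SD was 0.98 for *Hagh* and 0.46 for *Park7*, larger in size than their differences of -0.61 and 0.06. For *Hagh* and *Park7* it therefore says little about stability. Rescaling libraries to the same total moved the median log2 difference of all genes from -0.02 to -0.11. *Btbd9* passed a ratio of 1.5 only among mice of the shared study numbers. Of the listed genes, edgeR called 2 lower (*Aldh2* with *P* = 0.00875 and *Gpx4* with *P* = 0.00967). DESeq2 called 1 lower (*Aldh2*) and 1 higher (*Park2*, of the Parkinson disease list). Among mice of the shared study numbers 1 was called higher (*Haghl*, ratio 1.92), where 2.22% of all genes were called higher and 2.14% lower. The adjusted *P* of these calls was 0.199 to 0.298, and 0 listed genes were called in either direction under the other settings. Beside *Glo1*, the 1 gene called lower became 0 with a minimum mean of 20 and among mice of the shared study numbers, where *Umodl1* fell under the minimum mean and was not tested. Beside *Hagh*, 3 genes called higher became 5 among mice of the shared study numbers, and the 8 called lower ranged from 6 to 10. Without the 3 libraries that stood apart the calls were 0 listed genes, 1 higher and 1 lower beside *Glo1*, and 4 higher and 7 lower beside *Hagh*.

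Of the relations with intake, the 0 with an adjusted *P* of at most 0.05 for Pearson's *r* became 1 without the 3 libraries (*Hagh* with total kcal in *cast/cast* mice). The rho of that relation had an adjusted permutation *P* of 0.256 without the 3 libraries. Of the member pairs, 1 became 0 without them and 0 with equal totals, where *Hagh* and *Btbd9* in *b6/b6* mice had -0.69. Signs changed for weak relations. With equal totals these were *Park7* with C/P kcal (-0.12), *Glo1* with total kcal (-0.13) and *Glo1* with *Hagh* (0.35) in *b6/b6* mice, and *Glo1* with *Hagh* (0.17), *Glo1* with *Park7* (-0.067) and *Btbd9* with *Park7* (-0.33) in *cast/cast* mice. Without the 3 libraries they were *Btbd9* (-0.24) and *Park7* (-0.51) with C/P kcal in *b6/b6* mice, and *Glo1* with *Hagh* (0.034) and *Btbd9* with *Park7* (-0.011) in *cast/cast* mice. The cause was not tested. No paired analysis was possible because the labels give no replicate numbers that link mice of the 2 genotypes. Floors of 3 tag hits and counting intervals were not needed for the members, all of which had at least 83 hits in every mouse.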
